A study of Mus musculus with 7 samples.

Results

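The odorant receptor genes of mouse chromosome 14 that include Olfr1507 were followed through sorted cells of the olfactory epithelium. A gene belongs to the set if its name is Olfr followed by digits only, from Olfr721 to Olfr752 or from Olfr1507 to Olfr1513. Of the 39 numbers this covers, 35 are genes in the tables, out of 54532 genes in all and 1107 genes named Olfr and digits. The other 4 numbers have no such name, and 3 of them occur as pseudogene entries (-ps). All 35 members are annotated as protein coding on chromosome 14 in GENCODE M21 (build GRCm38).

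Messenger RNA was sequenced from cells purified by fluorescence and pooled, 1 library per age. OMP-GFP mice gave the mature olfactory sensory neurons, at postnatal days (P) 2, 7 and 16. OMP (olfactory marker protein) is made by mature neurons. Progenitor cells came from Neurog1-GFP mice at P3, P7, P9 and P16. Neurog1 is a transcription factor of neuronal precursors in this epithelium. The GFP-marked cells were sorted from olfactory epithelia of mice carrying these reporters, and the labels give no other allele or treatment. The mouse line and the population cannot be told apart. The ages of a population stand in as its replicates, and p-values measure the spread between these 3 and 4 libraries, age included. The labels do not say that the libraries came from separate animals.

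Counts on genes summed to 24203965 to 25930727 per library. Neurog1 averaged 1.26 ± 0.526 TPM in mature neurons and 432 ± 185 TPM in progenitors (SD, n = 3 and 4), and its log2 fold of mature neurons over progenitors was -8.32 (edgeR adjusted p = 8.42e-06). TPM is a read measure scaled for transcript length and to a fixed total per library. Omp stood at 1066, 1413 and 1630 TPM in mature neurons of P2, P7 and P16. In the libraries labelled progenitor it stood at 1981, 1323, 2371 and 2306 TPM at P3, P7, P9 and P16. Omp was not called between the populations (log2 fold -0.41, edgeR adjusted p = 0.179), and this marker of mature neurons was thus abundant in the libraries labelled progenitor too. Of 14 markers of mature neurons 12 were higher in mature neurons, and 14 of 15 markers of progenitors and immature neurons were lower there.

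Odorant receptors are G protein-coupled receptors of the cilia of olfactory neurons. Each mature neuron transcribes 1 allele of 1 receptor gene, and in bulk RNA a receptor's level follows how many of the sorted cells chose it and how much RNA each makes. These quantities cannot be told apart in pooled cells. The receptors of chromosome 14 are of class II, the class that is largest in mammals. Olfr1507 (MOR28), Olfr1508 (MOR10) and Olfr1509 (MOR83) lie beside the H element, an enhancer known from mouse deletions to act on these receptors in cis.

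The members sit in 3 loci. The first, chr14:49894258-50745094, spans 850.8 kb and holds 27 members, Olfr722 to Olfr749, with 12 on the plus and 15 on the minus strand. Olfr750 stands alone at chr14:51066301-51074435. The third, chr14:52347495-52495749, spans 148.3 kb and holds Olfr1513 to Olfr1507 in that order, with Olfr1509 alone on the plus strand. Measured between the lower coordinates of the annotated genes, Olfr1508 lies 30.0 kb, Olfr1509 45.8 kb, Olfr1510 79.7 kb, Olfr1511 99.0 kb, Olfr1512 117.5 kb and Olfr1513 141.3 kb from Olfr1507.

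In the third locus 6 of the 7 receptors form pairs of near copies, and the coding bases below show them beside Olfr1509, whose nearest member is Olfr1508 at 63.63% of coding bases. Each line gives 60 coding bases, 5′ to 3′ on the gene's strand, read from GRCm38 around the most conserved stretch of the coding sequence. Capitals mark the 21 columns that are identical in all 35 members.
Olfr1507: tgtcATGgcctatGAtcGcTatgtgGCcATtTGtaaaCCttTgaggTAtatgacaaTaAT
Olfr1508: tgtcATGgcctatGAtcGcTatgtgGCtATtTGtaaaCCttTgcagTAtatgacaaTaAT
Olfr1509: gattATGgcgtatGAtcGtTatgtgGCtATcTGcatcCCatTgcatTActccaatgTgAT
Olfr1510: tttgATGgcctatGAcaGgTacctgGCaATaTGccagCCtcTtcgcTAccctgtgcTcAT
Olfr1511: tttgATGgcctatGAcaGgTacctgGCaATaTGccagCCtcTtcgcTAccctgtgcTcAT
Olfr1512: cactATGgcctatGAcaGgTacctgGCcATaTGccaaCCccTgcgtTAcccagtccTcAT
Olfr1513: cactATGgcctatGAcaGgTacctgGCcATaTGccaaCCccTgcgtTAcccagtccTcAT
The Olfr1507 stretch is chr14:52490547-52490606 on the minus strand and covers coding bases 357 to 416. Olfr1508 shares 57 of its 60 bases, Olfr1509 shares 38, and Olfr1510 to Olfr1513 share 35 each. The lines of Olfr1510 and Olfr1511 are identical to each other, as are those of Olfr1512 and Olfr1513.

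Over whole coding sequences, identity between members ran from 45.56% to 98.49%, with a median of 52.5% over 595 pairs. Olfr1507 and Olfr1508 were identical at 92.69% of aligned coding bases, Olfr1507 and Olfr1509 at 63.1%, Olfr1510 and Olfr1511 at 97.27%, and Olfr1512 and Olfr1513 at 95.95%. This bears on the counts, since a read that fits both copies is multi-mapping, and such reads made up 11.86% to 13.91% of each library. The share of a member's 50-base exon stretches found in no other annotated exon ran from 45.19% (Olfr723, whose near copy is Olfr724) to 100% (5 members). It was 93.91% for Olfr1507, 96.98% for Olfr1508 and 100% for Olfr1509, against 74.66% for Olfr1510 and 65.54% for Olfr1511. Values of the close pairs are therefore less certain than those of Olfr1509. The annotated span of Olfr1512 overlaps that of Gm37504 on its strand, and the span of Olfr738 overlaps that of Olfr737-ps1 on the opposite strand. These spans include introns, and overlap of exons was not examined. The strand setting of the counting is not given in the sources used here.

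Olfr1507 was the most abundant member in both populations by mean TPM. It had 39.0, 113 and 167 TPM in mature neurons of P2, P7 and P16. In progenitors it had 87.8, 37.0, 133 and 61.1 TPM at P3, P7, P9 and P16. Mature neurons at P2 lay below 3 of the 4 progenitor libraries, so the populations overlapped. Among all 1107 receptors its TPM ranked 34, 1 and 2 in mature neurons and 2, 3, 2 and 4 in progenitors. By mean TPM it ranked 2 in each population.

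Olfr1508 had 6.21, 14.6 and 38.2 TPM in mature neurons of P2, P7 and P16, and 13.1, 7.73, 21.8 and 15.7 TPM in progenitors at P3, P7, P9 and P16. Like Olfr1507, it was lowest at P7 and highest at P9 among the progenitor libraries. Olfr1509 had 11.9, 22.2 and 73.5 TPM in mature neurons and 11.6, 14.6, 19.8 and 23.1 TPM in progenitors. It ordered by age in both populations, and its P16 mature library alone lay above every progenitor library.

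The 4 receptors farther from Olfr1507 followed another order across the libraries. Olfr1510 had 15.3, 18.2 and 12.3 TPM in mature neurons and 6.83, 7.33, 7.10 and 7.47 TPM in progenitors. Olfr1511 had 21.5, 22.1 and 19.1 TPM in mature neurons and 10.8, 13.8, 11.7 and 14.3 TPM in progenitors. For both, every mature library lay above every progenitor library. Olfr1512 had 20.8, 19.3 and 10.1 TPM in mature neurons and 8.55, 5.13, 5.72 and 8.0 TPM in progenitors. Olfr1513 had 6.86, 10.6 and 4.54 TPM in mature neurons and 3.63, 3.91, 3.45 and 4.23 TPM in progenitors. These also did not overlap, and P16 was the lowest mature library in all 4.

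**Figure D1:**
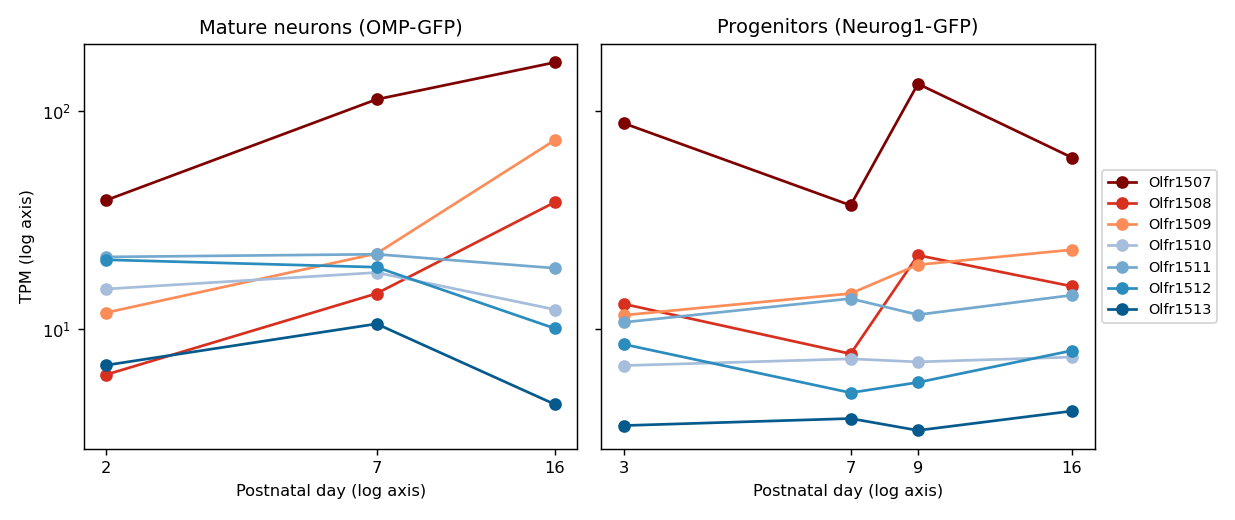
TPM (log axis) of Olfr1507 to Olfr1513 against postnatal day (log axis), with mature neurons on the left and progenitors on the right, 1 library per point. In mature neurons Olfr1507, Olfr1508 and Olfr1509 are highest at P16, and Olfr1510 to Olfr1513 are lowest there.

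In the first locus, Olfr727 and Olfr726 led. Olfr727 had 60.8, 83.7 and 78.1 TPM in mature neurons and 58.0, 35.7, 71.0 and 71.9 TPM in progenitors, and ranked 4 in mature neurons and 3 in progenitors among all receptors by mean TPM. Olfr726 had 44.3, 68.4 and 77.5 TPM in mature neurons and 36.5, 20.5, 41.7 and 32.4 TPM in progenitors, and ranked 11 in mature neurons and 5 in progenitors. The populations overlapped for Olfr727 and not for Olfr726. Olfr742 had 30.2, 42.5 and 104 TPM in mature neurons and 25.1, 18.5, 25.3 and 24.6 TPM in progenitors. Olfr728 had 19.5, 25.6 and 75.3 TPM in mature neurons and 10.6, 13.2, 17.0 and 23.4 TPM in progenitors. In both genes the P16 mature library stood well above the other mature libraries. Olfr745 ran the other way, with 54.0, 50.3 and 15.3 TPM in mature neurons and 11.9, 16.4, 11.4 and 15.5 TPM in progenitors. Its P16 mature library lay within the progenitor range.

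Of the remaining abundant members, Olfr722 had 22.6, 25.6 and 55.3 TPM in mature neurons and 10.4, 17.6, 19.0 and 24.7 TPM in progenitors. Olfr741 had 15.3, 26.1 and 61.9 TPM in mature neurons and 13.8, 19.2, 32.4 and 30.0 TPM in progenitors. Both were highest at P16 in mature neurons. Olfr747 had 20.8, 26.8 and 25.2 TPM in mature neurons and 10.8, 9.62, 5.94 and 12.5 TPM in progenitors. Olfr749 had 29.0, 28.0 and 16.1 TPM in mature neurons and 10.3, 7.37, 7.05 and 14.3 TPM in progenitors. Neither pair of groups overlapped. The quartiles of mean TPM over the 35 members in mature neurons were 10.3, 16.7 and 31.3, against 4.73, 8.68 and 14.6 over all receptors. The lowest member, Olfr750, averaged 4.95 ± 0.863 TPM in mature neurons and 1.43 ± 0.263 TPM in progenitors (SD, n = 3 and 4).

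**Figure D2:**
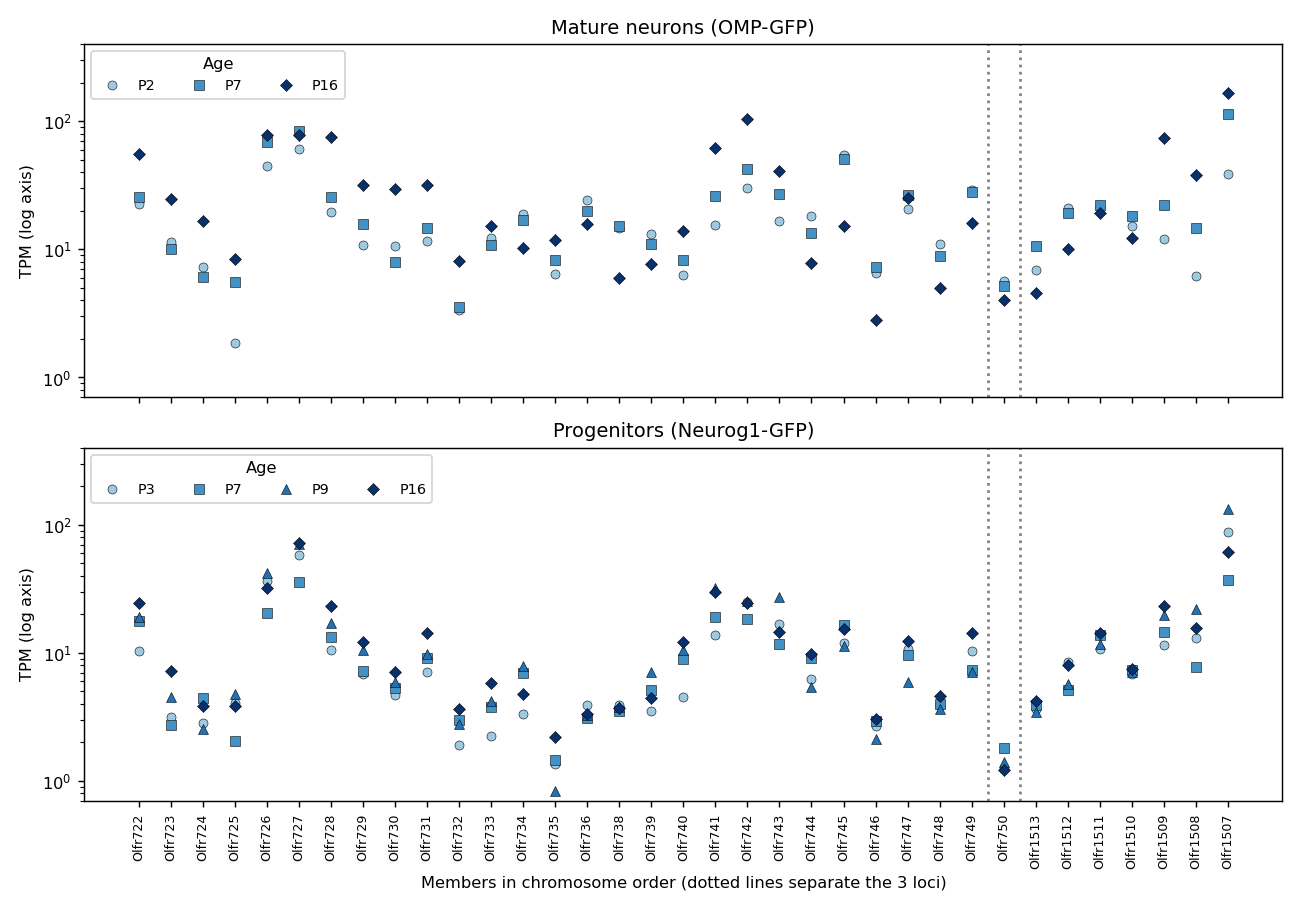
TPM (log axis) of the 35 members in chromosome order, with mature neurons above and progenitors below, 1 library per point and the age by colour and shape. Olfr1507, at the right end, Olfr727 and Olfr726 have the highest means in both populations and Olfr750 the lowest, while at P16 in mature neurons Olfr742 lies above Olfr727 and Olfr726.

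The first comparison asked which of these receptors differ in level between mature neurons and progenitors. Of the 35 members, 26 were higher in mature neurons, 0 were lower and 9 were not called (edgeR quasi-likelihood test, adjusted p under 0.05 over 17975 genes). Across all tested genes 28.8% were higher and 30% lower, and across the 1070 tested receptors 72.6% were higher and 5.14% lower, so the 74.3% of the members is near the share of receptors in general. All 35 folds were positive, and their median was 1.18 on the log2 scale, against 1.21 for the 1035 other receptors and 0.01 for all genes. In 19 members every mature library lay above every progenitor library in TPM, a state found in 22.8% of all tested genes and 56% of receptors. All 35 members passed the filter on low counts, with 261 to 21559 counts each over the 7 libraries.

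The largest folds were those of 3 receptors in the middle of the first locus. Olfr736 had 24.2, 19.9 and 15.8 TPM in mature neurons and 3.89, 3.13, 3.29 and 3.33 TPM in progenitors. Its log2 fold was 2.71 (SE 0.16, edgeR adjusted p = 8.6e-06), the largest of the 35. Olfr735 had 6.40, 8.22 and 11.7 TPM in mature neurons and 1.36, 1.46, 0.84 and 2.20 TPM in progenitors. Its log2 fold was 2.51 (SE 0.34, edgeR adjusted p = 0.000373). Olfr733 had 12.2, 10.8 and 15.2 TPM in mature neurons and 2.24, 3.76, 4.19 and 5.79 TPM in progenitors. Its log2 fold was 1.91 (SE 0.29, edgeR adjusted p = 0.000631). In all 3 the groups stood clear of each other.

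The smallest folds were those of Olfr740, Olfr743 and Olfr725, none of them called. Olfr740 had 6.26, 8.27 and 13.8 TPM in mature neurons and 4.57, 8.94, 10.5 and 12.1 TPM in progenitors, and its log2 fold was 0.11 (SE 0.40, edgeR adjusted p = 0.83). Olfr743 had 16.6, 26.9 and 40.7 TPM in mature neurons and 16.7, 11.7, 27.1 and 14.5 TPM in progenitors, with a log2 fold of 0.44 (SE 0.39). Olfr725 had 1.87, 5.57 and 8.39 TPM in mature neurons and 4.04, 2.06, 4.78 and 3.86 TPM in progenitors, with a log2 fold of 0.45 (SE 0.45). The groups overlapped in all 3. With P7 and P16 alone and age as a block, Olfr743 (1.09) and Olfr725 (1.10) were called higher. That fit holds 1 library per population and age, which leaves little spread between libraries. Its calls rest largely on the spread shared across genes.

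Within the third locus, 4 of the 7 receptors were called. Olfr1507, Olfr1508 and Olfr1509 were not called, with log2 folds of 0.52 (SE 0.53), 0.47 (SE 0.49) and 1.17 (SE 0.54) and edgeR adjusted p of 0.421, 0.429 and 0.092. Olfr1510 (1.18), Olfr1511 (0.54), Olfr1512 (1.43) and Olfr1513 (1.04) were called higher, with edgeR adjusted p of 0.000284, 0.0171, 0.00348 and 0.00486. The standard errors of Olfr1510 to Olfr1513 were 0.15 to 0.30, against 0.54 for Olfr1509. With 1 library left out the log2 fold of Olfr1509 ran from 0.09 to 1.58 and that of Olfr1507 from 0.01 to 0.93, both lowest without the P16 mature library, and that of Olfr1510 from 1.03 to 1.30. In a fit of P7 and P16 alone with age as a block, Olfr1507 to Olfr1509 were called higher and Olfr1511 and Olfr1513 were not. Without the P2 mature library Olfr1509 was called and Olfr1511 was not, and Olfr1511 was also lost without the P7 mature library. The difference between the folds of these receptors was not tested.

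The other abundant members with calls were Olfr745 (1.69), Olfr747 (1.58), Olfr728 (1.51), Olfr742 (1.28), Olfr749 (1.05), Olfr722 (1.02) and Olfr726 (0.95) on the log2 scale. Olfr727 (0.49, SE 0.24) and Olfr741 (0.80, SE 0.45) were not called. With P7 and P16 alone and age as a block, a fit with little spread of its own, Olfr727 (0.87, edgeR adjusted p = 0.0158) and Olfr741 (1.12, edgeR adjusted p = 0.000817) were called. Olfr749 (0.72, edgeR adjusted p = 0.156) was not called in it. Without the P16 mature library the fold of Olfr741 was 0.10. Olfr742, Olfr728 and Olfr722 lost their calls when the P16 mature library, their highest, was left out. The same held without the P3 or the P7 progenitor library, and for Olfr728 and Olfr722 also without the P9 progenitor library.

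**Figure D3:**
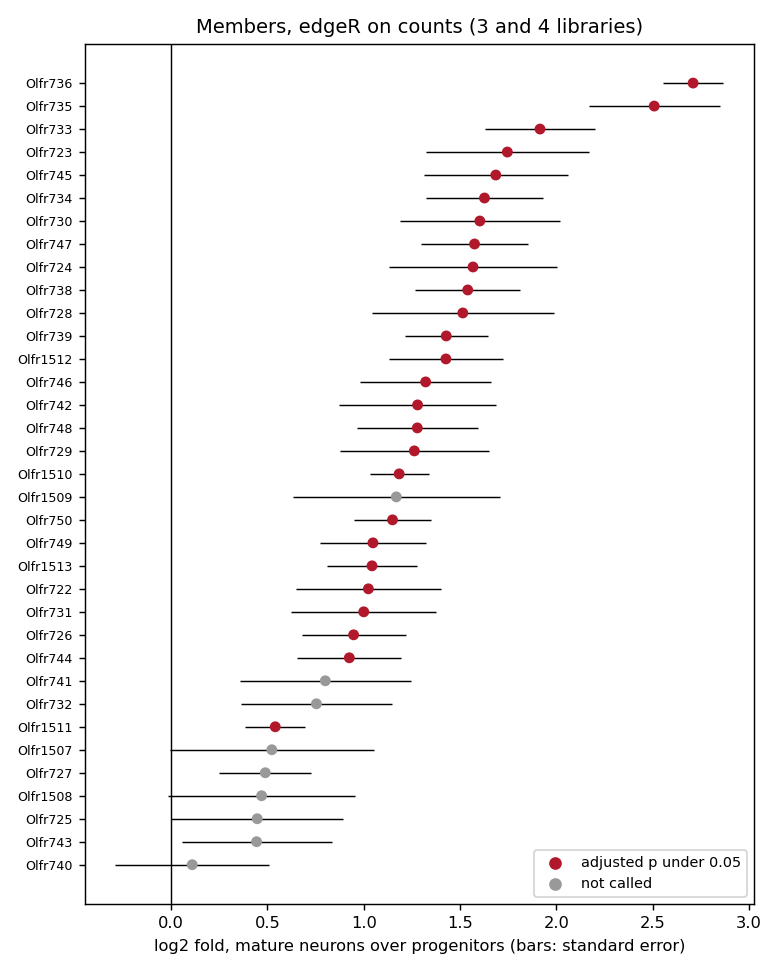
Log2 fold of mature neurons over progenitors (points) with its standard error (bars) for the 35 members, sorted by fold, from edgeR on counts of 3 and 4 libraries. Red points passed an adjusted p of 0.05 over all tested genes; 26 are red, and all 35 lie above 0.

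Receptor RNA as a whole was more abundant in mature neurons. Counts on all receptors were 1.62%, 1.57% and 1.53% of gene counts in mature neurons of P2, P7 and P16, and 0.650%, 0.772%, 0.80% and 0.808% in progenitors at P3, P7, P9 and P16. When libraries were scaled to their receptor counts instead of all genes, the median receptor fold was 0.01 and the median of all genes was -1.20. Of all 17975 tested genes 3.65% were called higher and 77.2% lower on this scale, so adjustment over all genes changes p little. Relative to the receptor pool, 3 members were higher in mature neurons and 3 lower, where 16.4% of receptors were higher and 13.7% lower. The higher ones were again Olfr736 (log2 fold 1.49, edgeR adjusted p = 9.18e-05), Olfr735 (1.31, edgeR adjusted p = 0.0035) and Olfr733 (0.73, edgeR adjusted p = 0.0238). The lower ones were Olfr740 (-1.07, edgeR adjusted p = 0.0182), Olfr727 (-0.72, edgeR adjusted p = 0.017) and Olfr1511 (-0.66, edgeR adjusted p = 0.00531). Olfr1507 and Olfr1508 had -0.70 and -0.74 on this scale and were not called (adjusted p = 0.224 and 0.157). Scaling therefore decided the direction for 18 members, which were positive relative to all genes and negative relative to other receptors.

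The members held 4.06%, 5.17% and 8.05% of all receptor counts in mature neurons of P2, P7 and P16 (95% Wilson intervals 3.99 to 4.12, 5.11 to 5.24 and 7.96 to 8.13, counting error only). In progenitors they held 7.14%, 4.69%, 7.70% and 6.83% at P3, P7, P9 and P16. The P2 mature library was the lowest of the 7 and the P16 mature library the highest. Olfr1507 alone held 0.320%, 0.931% and 1.41% in mature neurons and 1.87%, 0.615%, 2.25% and 1.03% in progenitors. Olfr1507, Olfr1508 and Olfr1509 together held 0.518%, 1.33% and 2.43% in mature neurons and 2.72%, 1.09%, 3.22% and 1.86% in progenitors. Olfr1510 to Olfr1513 held 0.356%, 0.376% and 0.236% in mature neurons and 0.430%, 0.315%, 0.301% and 0.369% in progenitors.

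**Figure D4:**
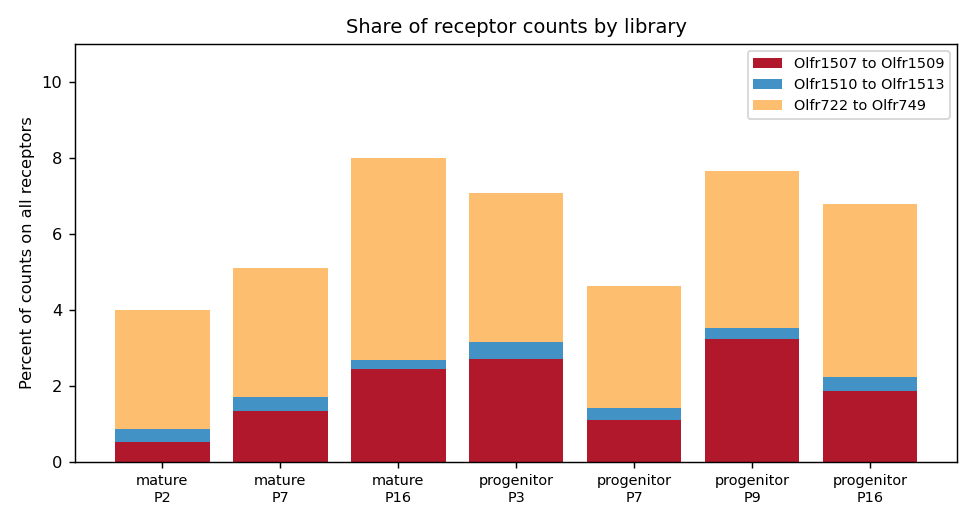
Percent of all receptor counts on Olfr1507 to Olfr1509 (red), Olfr1510 to Olfr1513 (blue) and Olfr722 to Olfr749 (yellow), stacked, for the 3 mature neuron libraries and the 4 progenitor libraries. The red part is 0.518% at P2 and 2.43% at P16 in mature neurons, and the blue part stays between 0.236% and 0.430% in all 7 libraries.

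The second comparison asked how the receptors varied with age within a population. Slopes were fitted as log2 change per doubling of postnatal day. In mature neurons no member and no gene of the 17975 was called (edgeR, smallest adjusted p 0.156), nor was any member by limma on log2(TPM + 1). At an unadjusted p under 0.05, 18 of the 35 members passed, against 18.3% of all genes and 31.7% of receptors. The slope was positive in 21 members and its median was 0.30. Among the other receptors 35.9% had a positive slope and the median was -0.13. With 1 library per age, age and library cannot be told apart.

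The slopes of smallest p were those of Olfr1509 (0.84, SE 0.13) and Olfr729 (0.54, SE 0.08) among positive ones, each with an edgeR adjusted p of 0.156. Olfr729 had 10.9, 15.8 and 31.9 TPM in mature neurons of P2, P7 and P16. Among negative ones they were Olfr744 (-0.36, SE 0.11) and Olfr748 (-0.44, SE 0.14). Olfr744 had 18.3, 13.4 and 7.78 TPM and Olfr748 had 11.1, 8.89 and 5.02 TPM, so both ordered downward with age. Olfr1507 and Olfr1508 had slopes of 0.73 (SE 0.26) and 0.75 (SE 0.17). Olfr1510, Olfr1511, Olfr1512 and Olfr1513 had -0.05, -0.06, -0.31 and -0.16.

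Calls on age depended on which libraries were used. Without the P7 mature library 9 members were called higher with age and Olfr745 lower. Of receptors 8.12% were higher and 8.21% lower there, and of all tested genes 1.57% and 2.85%. Without the P2 mature library 5 members were called higher, where 4.01% of receptors and 0.457% of all tested genes were. Without the P16 mature library 0 were, and the median slope was 0.07. Without the low-count filter 4 were called higher, where 1.82% of receptors and 0.263% of all tested genes were. Olfr1509, Olfr722, Olfr728, Olfr730 and Olfr731 were called in both of the first fits, which share the P16 mature library. With a mature library left out, the mature line passes exactly through those that remain. The spread between libraries in such a fit comes from progenitors alone, so its calls measure no spread among mature neurons. Olfr730 and Olfr731 were named after their values were seen.

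In TPM the P16 mature library was the highest of the 3 for 19 members, the lowest for 14 and between for 2. Among the other 1035 receptors it was the highest for 31.0% and the lowest for 61.2%. The median ratio of P16 to P2 was 1.75 in the members and 0.73 in the other receptors. The ratio was 6.16 for Olfr1509, 6.15 for Olfr1508, 4.49 for Olfr725, 4.27 for Olfr1507 and 4.04 for Olfr741. It was lowest for Olfr745, at 0.28. No test was made of these ratios, which rest on 1 library each.

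Neighbours along the chromosome tended to share a state. P16 was the highest mature library from Olfr722 to Olfr726 and from Olfr728 to Olfr733, in Olfr735 and from Olfr740 to Olfr743. It was the lowest in Olfr734, from Olfr736 to Olfr739, from Olfr744 to Olfr746 and from Olfr748 through Olfr750 and Olfr1513 to Olfr1510. The last run ended between Olfr1510 and Olfr1509, and Olfr1509 to Olfr1507 were highest at P16. Of 32 adjacent pairs of members within 100 kb, 68.8% shared a state, close to the 69.3% of 955 such pairs of other receptors. Slopes of 1 sign were found in 75% of the member pairs and 73.8% of the others. Sharing a state or a sign with a neighbour was thus as common elsewhere. Near copies did not always share a state. Olfr739 and Olfr742, chosen after their values were seen, were identical at 93.96% of coding bases, and P16 was the lowest mature library for Olfr739 and the highest for Olfr742.

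**Figure D5:**
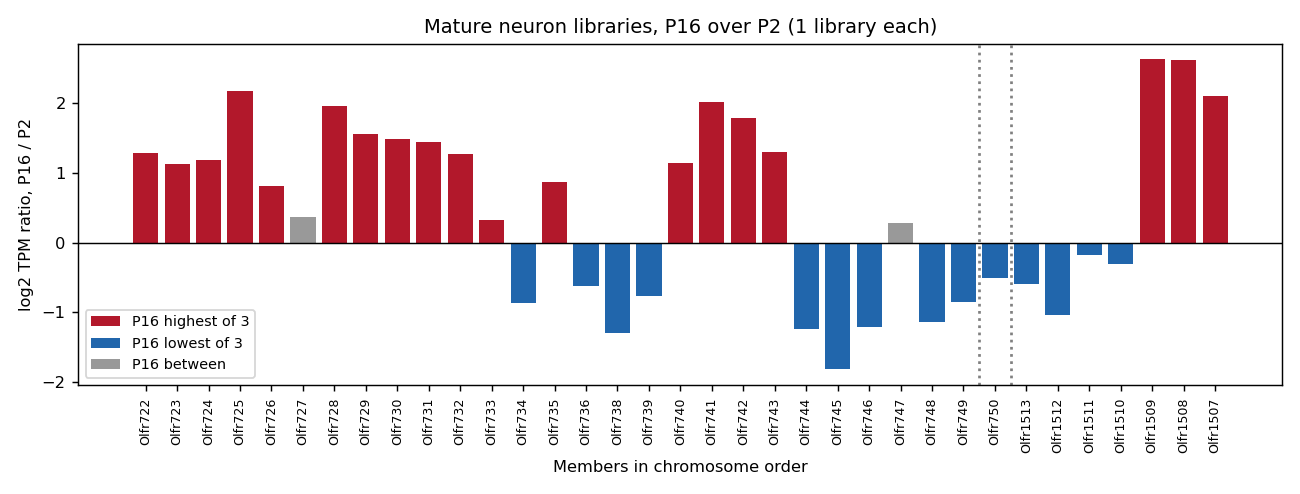
Log2 ratio of TPM in the P16 over the P2 mature neuron library, 1 library each, for the 35 members in chromosome order. Red bars are members with P16 as the highest of 3 mature libraries (19), blue bars those with P16 as the lowest (14) and grey bars those between (2); dotted lines separate the 3 loci.

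The P16 mature library also stood apart in summed transcripts of other cells, though markers within a list did not all move together. The 15 markers of leukocytes and erythroid cells summed to 421, 474 and 3180 TPM in mature neurons of P2, P7 and P16, and to 208 to 1400 TPM in progenitors. Of the 15, 9 were higher in mature neurons and none lower, beside 28.8% and 30% of all tested genes. Most of the P16 sum was hemoglobin RNA, with Hba-a1, Hba-a2 and Hbb-bs at 591, 1201 and 1093 TPM. The 15 markers of horizontal basal, glial and vascular cells summed to 117, 125 and 227 TPM in mature neurons and to 65.0 to 115 TPM in progenitors, with 6 of 14 tested higher. In mature neurons of P2, P7 and P16, Col1a1 had 3.17, 9.35 and 50.5 TPM and Dcn had 65.2, 54.4 and 44.3 TPM. The 22 markers of sustentacular and gland cells summed to 6720 to 9100 TPM in mature neurons and 3520 to 5490 TPM in progenitors, with 8 of 21 tested higher. Obp1a had 6.60, 1.40 and 1866 TPM in mature neurons of P2, P7 and P16. Cbr2 went the other way, with 1749, 1577 and 817 TPM, as did Sult1c1 with 487, 396 and 69.1 TPM. The part of these cells in the receptor results was not tested.

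In progenitors no slope was called (edgeR, smallest adjusted p 0.378 among the members), and 7 members passed an unadjusted p under 0.05, against 10.3% of all genes and 12.1% of receptors. The slope was positive in 30 members, with a median of 0.14 beside 0.13 for the other receptors. That direction depended on scaling: relative to receptor counts 15 were positive and the median was -0.01. Without P3 progenitors the median was 0.38, and without P16 progenitors 21 were positive, with a median of 0.10. The smallest p were those of Olfr729 (0.45) and Olfr740 (0.58) among positive slopes, and of Olfr736 (-0.07) and Olfr746 (-0.15) among negative ones. Olfr746, a low member, had 6.50, 7.34 and 2.80 TPM in mature neurons and 2.69, 2.93, 2.12 and 3.05 TPM in progenitors. In 24 members the slopes of the populations had 1 sign. The share among other receptors was not computed, and the progenitor signs depended on scaling. The difference of the slopes, mature neurons minus progenitors, was not called for any gene (edgeR, smallest adjusted p 0.806), and 4 members passed an unadjusted p under 0.05, against 5.98% of all genes and 12% of receptors. The named differences were 0.63 for Olfr1508, 0.51 for Olfr742, -0.50 for Olfr744 and -0.61 for Olfr745.

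Genes of receptor choice and of receptor function mostly differed in opposite directions between the populations. Across all tested genes 28.8% were higher in mature neurons and 30% lower. Of 10 tested factors that bind receptor enhancers and promoters, 7 were lower in mature neurons and 1 higher. Ldb1, the adaptor that joins Lhx2-bound enhancers, averaged 152 ± 17.9 TPM in mature neurons and 407 ± 11.1 TPM in progenitors (log2 fold -1.30, edgeR adjusted p = 2.08e-05). The homeobox factors Lhx2 and Emx2 had log2 folds of -1.15 and -1.14 (edgeR adjusted p = 8.35e-05 and 5.23e-05). Lhx2 is also among the markers of progenitors and immature neurons counted earlier. Of 24 genes of silencing, choice and feedback, 16 were lower and 4 higher. Ehmt1, a histone H3 lysine methyltransferase, had a log2 fold of -1.62, the histone deacetylase Hdac2 -1.94 and Kdm1a, the lysine demethylase Lsd1, -1.30 (edgeR adjusted p = 5.05e-06, 1.15e-05 and 1.29e-05).

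Of 22 genes of receptor trafficking and transduction, 18 were higher in mature neurons and 1 lower, beside 28.8% and 30% of all tested genes. Some of them, such as Rtp2 and Gng13, are also among the markers of mature neurons, so the counts of these lists are not separate. Rtp2, which helps receptors to the cell surface, averaged 716 ± 14.2 TPM in mature neurons and 342 ± 26.0 TPM in progenitors (log2 fold 1.19, edgeR adjusted p = 2.31e-05). Reep1, of a family of receptor accessory proteins, and Gng13, a G protein gamma subunit of olfactory cilia, had log2 folds of 1.45 and 1.64 (edgeR adjusted p = 2.7e-05 and 2.78e-05).

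Other genes beside the receptors gave a mixed picture. Within 100 kb of a member lie 46 annotated genes that are not receptors, of which 16 were tested, with 4 higher, 6 lower and 6 not called. The smallest p among the lower ones were those of Tox4 (log2 fold -0.59, edgeR adjusted p = 5.94e-05) and Sall2, a zinc finger factor (-1.38, adjusted p = 6.89e-05). Among the higher ones they were those of Rab2b, a small GTPase (0.57, adjusted p = 0.00171), and Gm4742 (2.24, adjusted p = 0.0018). The 3 T cell receptor alpha variable genes in this range were not tested, being below the filter. The share of 4 in 16 higher is close to the 28.8% of all genes.

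Upstream sequence could be tied to an annotated start for few members. RefSeq (GRCm38.p6) windows of 250 bases before to 50 bases after a gene's start matched 29 members, but only those of Olfr722 and Olfr1508 began within 100 bases of the most upstream start in GENCODE. The 216 bases before the start of Olfr1508, chr14:52467496-52467711 on the minus strand, are shown because this receptor lies nearest to Olfr1507. Capitals mark the only TAATGA match, on the reverse strand.
Olfr1508: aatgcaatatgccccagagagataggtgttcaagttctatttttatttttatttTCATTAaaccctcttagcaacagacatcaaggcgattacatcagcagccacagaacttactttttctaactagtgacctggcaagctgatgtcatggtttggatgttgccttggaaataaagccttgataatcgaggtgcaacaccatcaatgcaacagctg
The homeodomain cores TAATTA and TAATGA and the Ebf (Olf1) motif TCCCNNGGGA were searched on both strands. TAATGA occurred in 12 of the 29 member windows, in 28.8% of 944 receptor windows and in 9.78% of all 32851 windows. TAATTA occurred in 6, in 18.6% of receptor windows and in 5.29% of all. The Ebf motif occurred in none of the 29 and in 0.53% of receptor windows. A match is a description of letters only, and most of these windows lie away from the most upstream start, by a median of 4038 bases.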

How the data were processed

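Per the submitters' processing notes, the tools were bcl2fastq 2.18, STAR 2.6.1c and RSEM on mm10. The sources used here do not give the annotation release, the strand setting or the handling of multi-mapping reads. The authors deposited whole-number read counts per gene and TPM values; per the labels, libraries were made from poly(A) RNA with a stranded kit. Entries naming no gene held 23.53% to 27.22% of each library and were left out.

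Populations were compared on the counts with edgeR 4.0.16 (R 4.3.3; TMM, filterByExpr, quasi-likelihood test, Benjamini-Hochberg adjustment over all tested genes at 0.05). A second model gave each population a slope on log2 postnatal day. Folds are mature neurons over progenitors. The standard error (SE) of an edgeR fold or slope was derived as its absolute log2 value divided by the square root of the test's F statistic. Alternatives were DESeq2 1.42.0, limma 3.58.1 on log2(TPM + 1) and log2(TPM + 0.1), other scalings, no filter, an age covariate, an age block, and each library left out. The fits were tested on simulated data. Coordinates come from GENCODE M21 by Ensembl ID. Coding sequences were aligned with MAFFT.

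The members, the gene lists and the tests were chosen with earlier results of these data known. The text names Olfr1507 to Olfr1513, the 10 other members highest in mature neurons, the 3 largest and 3 smallest population folds, the 2 smallest p of each slope in each direction, the 3 smallest p of each gene list and the 2 smallest p of the flanking genes in each direction. Olfr723, Olfr724, Olfr730, Olfr731, Olfr732, Olfr734, Olfr738, Olfr739 and Olfr750 fall outside this rule. They are named for their place, their sequence or single results, and otherwise enter only ranges and counts.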

Additional observations from a re-analysis of the deposited data

Results flagged for a closer look

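Within groups of 4, 35 sets of progenitor TPM values were examined for a library far from the others, and 1 was found, where chance flags about 1 group in 20. Olfr742 had 18.5 TPM in the P7 progenitor library, and the other progenitor libraries had 24.6 to 25.3 TPM. The gap from the P7 library to its nearest neighbour was 0.898 of the group's range, above Dixon's 95% critical value for 4 libraries. Groups of 3 libraries were not examined in this way.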

How the results depend on the processing

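The count of members higher in mature neurons was 26 with RLE scaling, DESeq2, no filter and the age block. Of receptors 72.9%, 73.2%, 69.8% and 61.6% were higher there, in that order. Age as a covariate gave 29 members, beside 77.0% of receptors. Limma gave 21 members at either pseudocount, beside 61.4% of receptors at 1 and 60.1% at 0.1. It lost Olfr722, Olfr728, Olfr729, Olfr731 and Olfr744. The block lost Olfr1511, Olfr1513, Olfr724, Olfr744, Olfr746, Olfr748 and Olfr749 and gained Olfr1507, Olfr1508, Olfr1509, Olfr725, Olfr727, Olfr741 and Olfr743. It holds 1 library per population and age, so little spread is left to judge these calls by. Leaving out 1 library gave 21 to 26 higher and 0 lower, where 62.5% to 74.2% of receptors were higher and 4.76% to 5.79% lower. The calls lost without the P16 mature library were those of Olfr722, Olfr728, Olfr729, Olfr731 and Olfr742, and the same 5 were lost without P3 or without P7 progenitors. Without P9 progenitors Olfr722, Olfr728 and Olfr731 lost theirs. Scaling to receptor counts left 3 higher and 3 lower, beside 16.4% of receptors higher and 13.7% lower, and 3.65% and 77.2% of all genes. It turned the folds of Olfr1507 (-0.70), Olfr1508 (-0.74), Olfr1509 (-0.023), Olfr1510 (-0.022), Olfr1511 (-0.66), Olfr1513 (-0.17), Olfr722 (-0.15), Olfr725 (-0.76), Olfr726 (-0.27), Olfr727 (-0.72), Olfr740 (-1.07), Olfr741 (-0.39), Olfr743 (-0.76), Olfr744 (-0.28) and Olfr749 (-0.16). Outside the naming rule, it also turned those of Olfr731 (-0.19), Olfr732 (-0.43) and Olfr750 (-0.05). With 1 library left out, log2 folds ran from -0.30 to 0.86 for Olfr1508, -0.083 to 0.82 for Olfr725, -0.42 to 0.36 for Olfr740 and -0.037 to 0.76 for Olfr743, with the lowest values without the P16 mature library, and Olfr740 was also negative without P3 progenitors (-0.10). The mature slopes ran from -0.45 to 0.17 for Olfr1510, -0.22 to 0.029 for Olfr1511 and -0.78 to 0.17 for Olfr1513, positive without the P16 mature library. The progenitor slopes ran from -0.21 to 0.15 for Olfr736 and -0.45 to 0.31 for Olfr746, positive without P3 progenitors, and limma gave 0.024 and 0.031 for Olfr746 at pseudocounts of 1 and 0.1. Members called higher with age in mature neurons numbered 4 without the low-count filter, beside 0.263% of all tested genes. They numbered 0 to 9 with 1 library left out, beside up to 1.57% of all genes. Those lower numbered 0 to 1, beside up to 2.85%. Fits without a mature library measured no spread among mature neurons. The progenitor share of receptor counts averaged 6.59%, and 5.15% without Olfr1507. The causes were not tested. Over all comparisons with an alternative for members named by the rule, the population fold kept its direction and call in 320. In 39 it kept its direction and lost its call, and in 11 it kept its direction and gained one. It turned in 20, counted as turned whether or not the call changed too. The mature slope kept both in 112, gained a call in 5 and turned in 3.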
